A study of Mus musculus with 4 samples.

Results

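This account covers 5 matrix metalloproteinase genes (Mmp2, Mmp3, Mmp9, Mmp13 and Mmp14) and 3 genes of their TIMP inhibitors (Timp1, Timp2 and Timp3) in mouse fibroblasts with and without SIN1. The genes were followed through 15 probe sets, 8 for the proteases and 7 for the inhibitors, out of 45101 on the array; each was found by a fixed list that pairs a gene with the number that begins a probe set ID. Expression was profiled on 4 arrays, with 2 for each genotype: wild type, and knock-out of SIN1 (SIN1 KO). All cells were labelled as murine epithelial fibroblasts (MEFs) of strain C57BL/6 and grown in DMEM. SIN1, encoded by Mapkap1, is a subunit of mTORC2, the kinase complex that phosphorylates AKT, SGK and PKC kinases. The SIN1 gene was ablated in the knock-out cells, which the labels describe as having altered metabolism; no further allele, agent or treatment is named for either group, and the labels give no embryo, clone, passage or immortalisation. The labels do not state whether replicate arrays hold separate cultures, so every p-value here speaks only for these arrays, whose spread may be technical variation.

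Matrix metalloproteinases are zinc-dependent enzymes that cleave collagens and other matrix proteins, and most are secreted as inactive precursors. TIMPs bind their active sites and block them. Mmp2 (gelatinase A) is activated at the cell surface in a complex that joins the membrane-bound protease Mmp14 with Timp2, so in fibroblasts these 3 genes are read together. Stromelysin Mmp3 and collagenase Mmp13 are strongly inducible, classically through AP-1 elements close to their start sites.

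The values are log2 expression per probe set, so 1 unit is a doubling, and a difference is always SIN1 KO minus wild type. The array medians lay between 4.23 and 4.32. Background on an array was set as the highest of its 27 Bacillus subtilis control probe sets, which was 4.05 and 3.91 in wild type, then 3.75 and 4.27 in SIN1 KO. It rests on a single control: the next highest lay between 3.27 and 3.64. The hybridisation controls, transcripts added to each sample, averaged 11.85 and 11.73 on the wild type arrays but 11.41 and 11.54 on those of SIN1 KO, lower on both; differences rescaled to them are given where they matter. The Gapdh 3′ minus 5′ difference, a sign of RNA integrity, was 0.64 to 1.09 and highest on SIN1 KO replicate 1. The same difference for actin was -0.40 to -0.27, and SIN1 KO replicate 1 did not stand out on it (-0.32). Over all tested probe sets, the closest arrays were wild type replicate 1 and SIN1 KO replicate 1 (Pearson r = 0.971 across probe sets) and the most distant were wild type replicate 2 and SIN1 KO replicate 2 (r = 0.904). Mapkap1 itself and fibroblast markers were not analysed here, so neither the genotype nor the cell type label was checked against them.

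Mmp2 was the protease with the largest difference, high in both SIN1 KO arrays and low, or under background, in the wild type arrays. Probe set 1416136_AT measured 4.75 and 3.41 in wild type against 8.84 and 10.45 in SIN1 KO. Probe set 1439364_A_AT, whose suffix marks probes shared by alternative transcripts of one gene, measured 5.84 and 3.75 in wild type against 10.05 and 11.13 in SIN1 KO. The genotypes did not overlap on either probe set, and the nearest arrays of opposite genotype were 4.09 and 4.21 apart, more than the widest separation of arrays within a genotype (1.61 and 2.09). The difference was 5.56 (SE 0.75, 95% interval 3.56 to 7.57) for 1416136_AT and 5.79 (SE 0.83, 95% interval 3.57 to 8.02) for 1439364_A_AT, or 47.3-fold and 55.5-fold. Wild type replicate 2 lay under its array's background on both; with that background in its place the folds were 39.8 and 52.5. Among 45037 tested probe sets these were the positive differences of rank 14 and 12. Neither passed limma's test across all tested probe sets (Benjamini-Hochberg adjusted p 0.584 and 0.619; 0.155 to 1 over the alternatives), in a series where no probe set did. Leaving out 1 array left differences of 4.76 to 6.37 and 4.75 to 6.84. RNA was measured in bulk, so a change in the share of cells expressing a gene and a change in RNA per cell cannot be told apart, here and below.

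**Figure D1:**
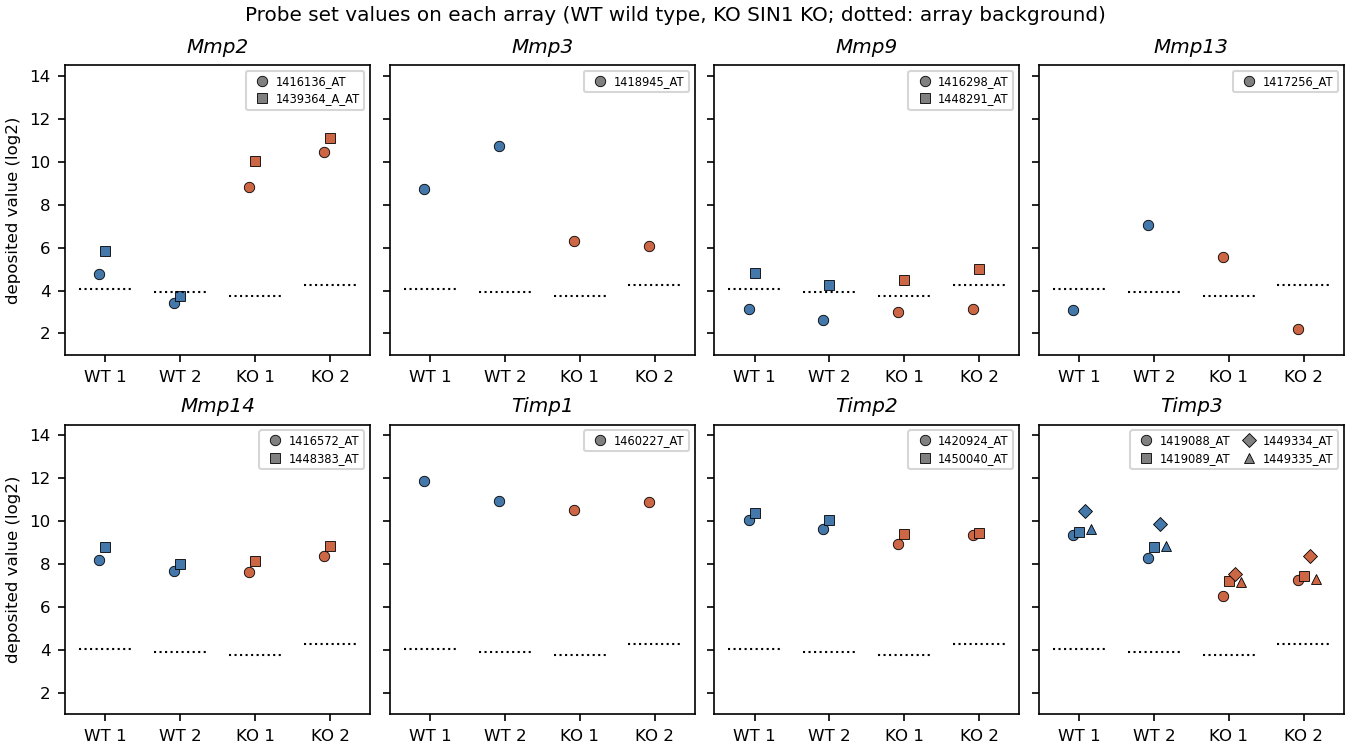
Log2 value of each probe set (vertical axis) on each array (horizontal axis; wild type in blue, SIN1 KO in orange), with 1 panel per gene, marker shapes for probe sets and dotted lines for each array's background. Both Mmp2 probe sets lie at 3.41 to 5.84 in wild type and 8.84 to 11.13 in SIN1 KO, Timp3 is lower in SIN1 KO on all 4 of its probe sets, and Mmp13 is above background on 1 array of each genotype.

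Mmp3, which degrades proteoglycans, fibronectin and laminin and activates other pro-MMPs, showed the opposite direction. Its probe set 1418945_AT measured 8.72 and 10.75 in wild type against 6.31 and 6.07 in SIN1 KO. Both knock-out arrays lay below both wild type arrays and above background, and the knock-out arrays were 0.24 apart, against 2.03 for the wild type arrays. The difference was -3.54 (SE 0.73, 95% interval -5.51 to -1.58), 11.7-fold lower in SIN1 KO, the negative difference of rank 32 among all tested probe sets, with a limma adjusted p of 0.798. Its size depended on wild type replicate 2, the higher of the wild type arrays: without it the difference was -2.53, and without wild type replicate 1 it was -4.56.

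Mmp13, a collagenase that cleaves fibrillar type II collagen, did not separate by genotype. Probe set 1417256_AT measured 3.08 and 7.06 in wild type, with 5.55 and 2.22 in SIN1 KO, above background on wild type replicate 2 and SIN1 KO replicate 1 alone. The arrays of a genotype were 3.97 and 3.33 apart. The difference of -1.19 (SE 1.77, 95% interval -5.93 to 3.56; limma adjusted p 0.892) turned to 0.80 without wild type replicate 2 and to 0.48 without SIN1 KO replicate 2, so these arrays give it no direction. With background in place of the values under it, the difference was -0.64.

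Mmp3 and Mmp13 lie in one gene cluster on chromosome 9, with Mmp12 and Mmp1b annotated between them (RefSeq, GRCm38.p6). The 250 bases before each annotated start are shown because these neighbours share an AP-1 element there. Both measured highest on wild type replicate 2 and lowest on SIN1 KO replicate 2, on which Mmp13, as on wild type replicate 1, lay under background. Whether the element bears on the values of these genes was not tested. Their differences were not tested against each other, and the interval for Mmp13 includes the value for Mmp3. The windows are chr9:7445572-7445821 for Mmp3 and chr9:7272264-7272513 for Mmp13, both on the plus strand, upstream of the first exon, with the AP-1 element in capitals.
Mmp3: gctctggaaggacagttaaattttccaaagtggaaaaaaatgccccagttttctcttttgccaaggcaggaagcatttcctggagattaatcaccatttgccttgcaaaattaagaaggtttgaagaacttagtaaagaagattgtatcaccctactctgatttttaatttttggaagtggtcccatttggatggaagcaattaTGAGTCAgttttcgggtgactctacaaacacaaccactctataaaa
Mmp13: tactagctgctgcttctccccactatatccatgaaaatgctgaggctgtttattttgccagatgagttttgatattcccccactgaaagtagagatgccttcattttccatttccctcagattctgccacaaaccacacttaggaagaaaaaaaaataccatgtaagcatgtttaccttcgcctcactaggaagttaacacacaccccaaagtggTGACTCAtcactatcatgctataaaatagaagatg
The AP-1 element was searched as TGANTCA. It began 46 bases before the start of Mmp3 and 35 bases before that of Mmp13. Each window also held the letters of a TATA box (TATAAA), which began 7 bases before the start of Mmp3 and 16 before that of Mmp13. All these distances depend on the annotated starts, which were not checked. The Mmp13 window alone held a forkhead element (TGTTTAC) and a RUNX element (TGTGGTT, here as AACCACA). Both strands were searched, and no match overlapped a match to another motif. Of the 32851 RefSeq windows of this length, 6.75% held the AP-1 letters, 12.4% the TATA letters, 3.17% the forkhead letters and 4.4% the RUNX letters. A match describes the sequence and does not show a bound site.

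Mmp14 (MT1-MMP), the membrane-bound protease that activates pro-Mmp2 and cleaves collagen around the cell, had overlapping values in the genotypes. Probe set 1416572_AT measured 8.19 and 7.66 in wild type, with 7.64 and 8.35 in SIN1 KO, and 1448383_AT measured 8.77 and 8.02, with 8.13 and 8.85 in SIN1 KO. Each genotype had a higher and a lower array on both probe sets. The differences were 0.07 (95% interval -0.96 to 1.10) and 0.10 (95% interval -1.04 to 1.23), so the arrays allow a difference of about 1 log2 unit either way. They turned negative without wild type replicate 2 (-0.19 and -0.28) or without SIN1 KO replicate 2 (-0.29 and -0.26).

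Mmp9 (gelatinase B), the other gelatinase, was at or close to background in both genotypes. Probe set 1416298_AT measured 3.15 and 2.62 in wild type, with 2.98 and 3.12 in SIN1 KO, under background on every array, so no fold is given. Probe set 1448291_AT measured 4.80 and 4.28 in wild type, with 4.48 and 5.01 in SIN1 KO, above background on every array, with a difference of 0.20 (95% interval -0.73 to 1.13) and overlapping genotypes. Scaled to the hybridisation controls, both Mmp9 probe sets were higher on both SIN1 KO arrays (by 0.49 and 0.52), while the median of all probe sets moved from 0.04 to 0.36.

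**Figure D2:**
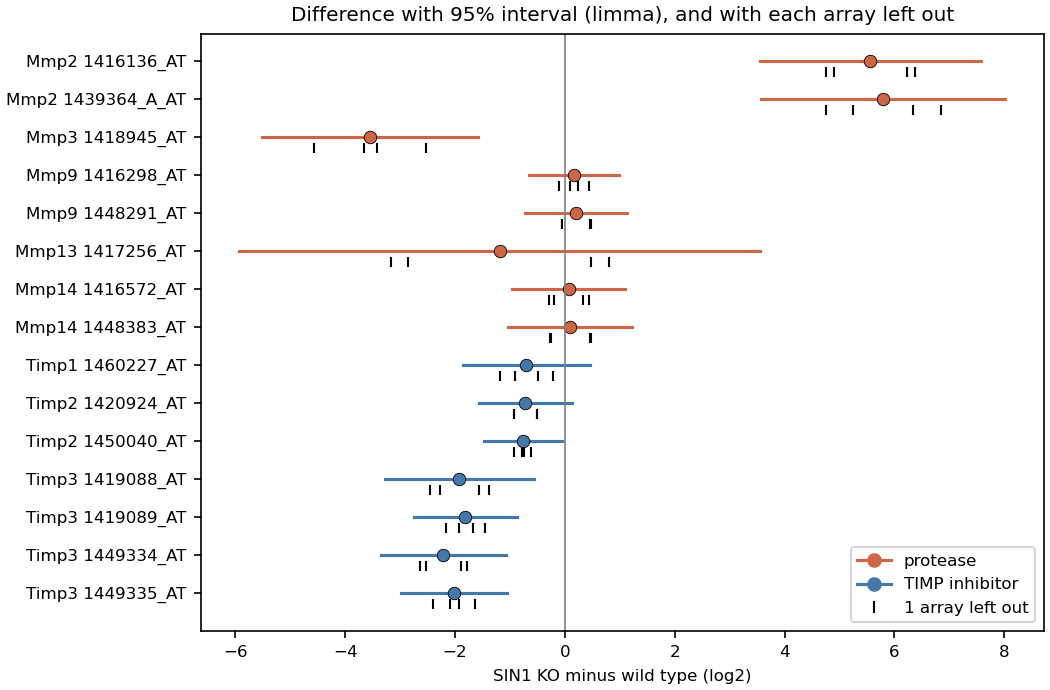
Difference of each probe set, SIN1 KO minus wild type in log2 units (horizontal axis), for proteases (orange) and TIMP inhibitors (blue); points are differences on all 4 arrays, lines their 95% intervals from limma, and short ticks the difference with 1 array left out. Both Mmp2 probe sets lie at 5.56 and 5.79, the 7 TIMP probe sets at -0.70 to -2.21, and the interval of Mmp13 runs from -5.93 to 3.56.

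In SIN1 KO, both arrays lay below both wild type arrays on all 7 TIMP probe sets, against 14.9% of all tested. These probe sets read only 3 genes, 4 of them Timp3, and the amounts differed between the genes. Timp1 was apart by only 0.01 and overlapped after median centring. Timp3, the inhibitor that binds to the extracellular matrix and also blocks ADAM and ADAMTS proteases, had the largest difference. Its 4 probe sets measured as follows. On 1419088_AT, wild type gave 9.34 and 8.26 and SIN1 KO 6.51 and 7.24. On 1419089_AT, wild type gave 9.48 and 8.79 and SIN1 KO 7.20 and 7.45. On 1449334_AT, wild type gave 10.45 and 9.84 and SIN1 KO 7.52 and 8.35. On 1449335_AT, wild type gave 9.63 and 8.86 and SIN1 KO 7.15 and 7.31. Every Timp3 value was above background, and the 4 probe sets, which read the same transcript and are not independent, put the differences close together, from -1.81 to -2.21 (SD between probe sets 0.17). Averaged over them, Timp3 stood at 9.33 ± 0.56 in wild type against 7.34 ± 0.35 in SIN1 KO (SD, n = 2), a difference of -1.99 (SE 0.40, 95% interval -3.05 to -0.92), or 3.97-fold lower, with a limma adjusted p of 0.802. Single probe sets reached -1.38 to -2.63 with 1 array left out.

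Timp2, the inhibitor that takes part in pro-Mmp2 activation, differed less. Probe set 1420924_AT measured 10.05 and 9.62 in wild type against 8.91 and 9.33 in SIN1 KO, and 1450040_AT measured 10.36 and 10.05 against 9.42 and 9.46. The genotypes were 0.29 and 0.59 apart at their nearest arrays, against 0.43 and 0.31 between the wild type arrays. The differences were -0.72 (95% interval -1.57 to 0.13) and -0.76 (95% interval -1.47 to -0.05), with a limma adjusted p of 0.82 for each. Scaled to the hybridisation controls they were -0.40 and -0.44, still without overlap.

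Timp1, the secreted inhibitor induced by growth factors and cytokines, was measured by 1 probe set. On 1460227_AT, wild type measured 11.88 and 10.92 and SIN1 KO 10.50 and 10.91. The nearest arrays of opposite genotype were only 0.01 apart, and the difference of -0.70 (SE 0.43, 95% interval -1.85 to 0.45; limma adjusted p 0.82) was -0.22 without wild type replicate 1. After median centring (-0.66) or scaling to the hybridisation controls (-0.38), the genotypes overlapped, so Timp1 was not separated from the spread between arrays.

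The window before Timp3, as the inhibitor with the largest difference, is shown beside those of the inducible proteases. It is chr10:86300162-86300411 on the plus strand (RefSeq, GRCm38.p6), upstream of the first exon and inside the span of Syn3, within which Timp3 lies; Timp1 lies in the same way within Syn1. The GC box (GGGCGG, here on the other strand as CCGCCC) is in capitals.
Timp3: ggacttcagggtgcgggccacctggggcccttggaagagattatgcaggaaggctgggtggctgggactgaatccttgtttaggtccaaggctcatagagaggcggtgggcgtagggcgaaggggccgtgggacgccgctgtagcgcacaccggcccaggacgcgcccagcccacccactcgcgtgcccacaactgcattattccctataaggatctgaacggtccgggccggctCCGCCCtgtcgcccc
RefSeq windows were found for 6 of the 8 genes. The GC box letters were in the windows of Timp1, Timp2, Timp3 and Mmp14, against 32.7% of all windows, and not in those of Mmp3 and Mmp13. None of the TIMP windows held the AP-1 or TATA letters searched, which says nothing about a factor acting elsewhere.

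The RNA level of Mmp2 relative to its activation partners was read within arrays, where scaling between arrays cancels. Protein amounts and enzyme activity were not measured. Relative to the wild type mean, the log2 ratio of Mmp2 to Timp2 (means over their probe sets) was 0.67 and -0.67 in wild type against 5.86 and 6.98 in SIN1 KO. Both knock-out arrays stood above both wild type arrays, by 6.42 on average (5.75 to 7.09 with 1 array left out), which restates the Mmp2 and Timp2 differences given above. The ratio of Mmp2 to Mmp14 was 0.54 and -0.54 in wild type against 5.28 and 5.91 in SIN1 KO. Its difference of 5.60 likewise restates that of Mmp2 alone (5.68 over its probe sets). With background in place of the Mmp2 values under it on wild type replicate 2, these differences were 6.26 and 5.43. For Mmp14 to Timp2 the values were 0.13 and -0.13 against 0.58 and 1.07 in SIN1 KO, a smaller difference of 0.82. It mostly restates the Timp2 difference (-0.74 over its probe sets, beside 0.08 for Mmp14). Each of these 3 ratios gave p = 0.333 in a two-sided exact permutation test (0.333 after Benjamini-Hochberg adjustment over the 3), the smallest p that 2 arrays against 2 allow.

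**Figure D3:**
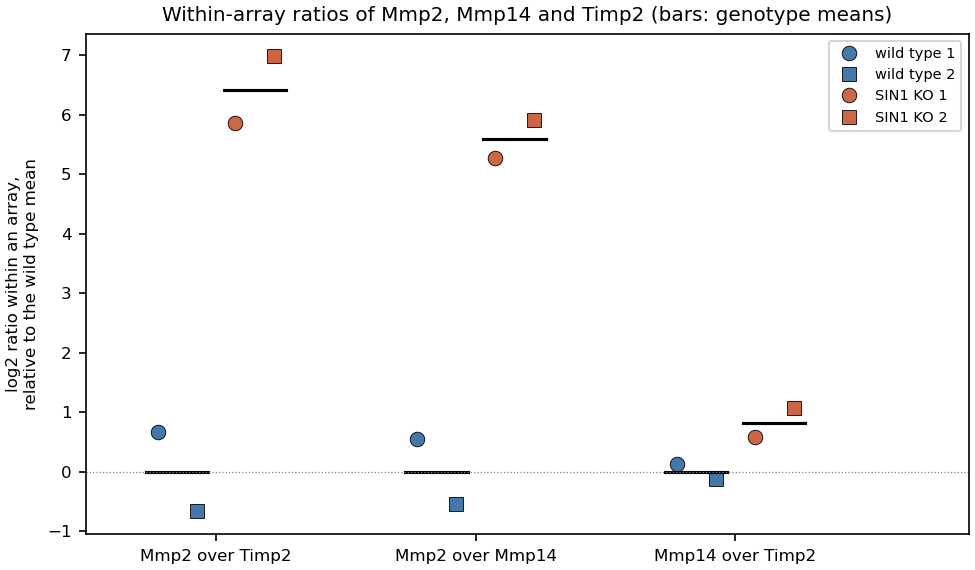
Log2 ratio between 2 genes on the same array, relative to the wild type mean (vertical axis), for 3 gene pairs; circles and squares are replicates 1 and 2, wild type in blue and SIN1 KO in orange, and bars are genotype means. The Mmp2 ratios lie 5.60 and 6.42 above wild type, and Mmp14 over Timp2 lies 0.82 above it.

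Across the 15 probe sets, 0 passed limma's test at an adjusted p of 0.05, as did 0% of all 45037 tested. At an unadjusted p under 0.05, 2 of the 15 were higher in SIN1 KO (both of Mmp2), against 3% of all, and 6 were lower (Mmp3, 1 of Timp2 and all 4 of Timp3), against 2.57% of all. Genotypes without overlap were found for 10 of the 15, against 35.3% of all: 2 of them higher (20.4% of all) and 8 lower (14.9% of all). With a difference of at least 1 log2 unit as well, 2 were higher (3.27% of all) and 5 lower (4.12% of all), the latter being Mmp3 and the 4 Timp3 probe sets. The median difference was 0.13 for the protease probe sets and -1.81 for the inhibitor probe sets, beside 0.04 for all tested. Since 4 of the 7 inhibitor probe sets are of Timp3, the medians over gene means were 0.08 for the 5 protease genes and -0.74 for the 3 inhibitor genes. The median size of a difference was 1.19 for the 15 beside 0.31 for all. These sets are unlike, with a median level of 7.96 for the 15 and 4.31 for all, and the 15 were chosen with earlier results of these data known. These shares count probe sets, and by gene, genotypes without overlap on every probe set come to 1 gene higher (Mmp2) and 4 lower (Mmp3, Timp1, Timp2 and Timp3). No share by gene over the whole array is available to set beside this. Timp1 is counted through a gap of only 0.01 and overlapped after median centring. Scaled to the hybridisation controls, 4 of the 15 were higher without overlap, against 51.4% of all, and 7 were lower, against 4.21% of all; at an unadjusted p under 0.05, the shares of all probe sets were 11.9% higher and 0.822% lower.

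**Figure D4:**
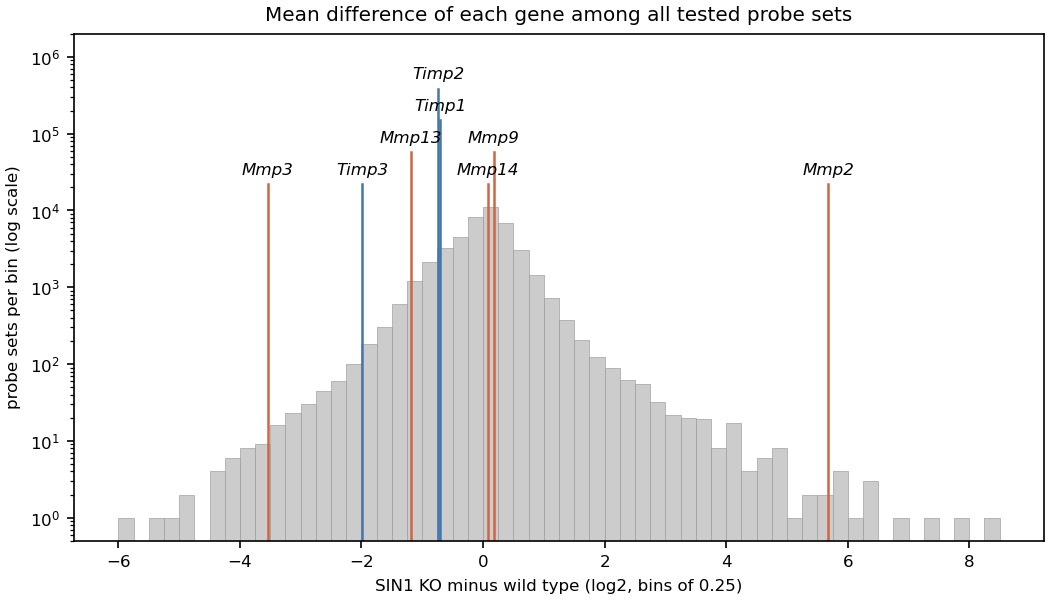
Histogram of the difference, SIN1 KO minus wild type in log2 units (horizontal axis, bins of 0.25), over all 45037 tested probe sets (vertical axis, number per bin on a log scale), with a line at the mean difference of each gene (orange proteases, blue inhibitors). Mmp2 at 5.68 and Mmp3 at -3.54 lie in the thin tails, Timp3 at -1.99 lies between them and the centre, and Mmp9 and Mmp14 lie at the centre.

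The arrays of a genotype also differed from each other in a shared way. Wild type replicate 1 was above wild type replicate 2, and SIN1 KO replicate 2 above SIN1 KO replicate 1, in 13 of the 15 probe sets, against 54.9% and 55.9% of all tested. In both cases the 2 exceptions were Mmp3 and Mmp13, which ran the other way. Probe sets of one gene always shared an order and are not independent, so by gene the exceptions are 2 of 8. All 7 TIMP probe sets followed the common order, so each was highest on wild type replicate 1 and lowest on SIN1 KO replicate 1. At least 1 log2 unit separated wild type replicate 1 from SIN1 KO replicate 1 in 10 of the 15 (8% of all) and from SIN1 KO replicate 2 in 7 (12.9% of all). For wild type replicate 2 the counts were 8 against SIN1 KO replicate 1 (14.8% of all) and 8 against SIN1 KO replicate 2 (29.4% of all). Within a genotype they were 5 for wild type (16.5% of all) and 3 for SIN1 KO (14.1% of all).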

How the data were processed

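The deposited table holds log2 values that the authors made with RMA (background correction, normalization between arrays, summary per probe set), per the submitters' processing notes; of its version, settings and probe set grouping, none is given in the sources used here. The log2 scale was read from the range, 0.80 to 14.17. Groups and replicate numbers came from the sample titles. Gene names came from the list that defined the 15 probe sets, whose members were chosen, like the other lists and tests here, with earlier results of these data known. Other probe sets are not paired with genes in the tables used here, so the planned pathway list, cell type markers and Mapkap1 were not analysed; every one of the 15 is named.

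All 45037 probe sets other than 64 named controls were fitted with limma 3.58.1 (lmFit, eBayes) in R 4.3.3, with Benjamini-Hochberg adjustment over all and a threshold of 0.05. The fit had 2 residual and 2.38 prior degrees of freedom, and precision is limited by the number of arrays (median SE 0.33). Folds are 2 to the power of the log2 difference. The fit was tested on simulated arrays with independent noise for each probe set. Variation shared across the probe sets of an array, as seen in these data, was not simulated, so the p-values were not tested against it. Gene ratios and the rule of 1 log2 unit were added after values were seen. Promoter windows came from RefSeq (GRCm38.p6). Figures used matplotlib 3.10.9 in Python 3.11.15. Alternatives were other scalings, variance priors, a filter at the median level, a 1.5-fold test (treat), other background levels, replicate blocks and left-out arrays. For genes with more than 1 probe set, the mean over them was another.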

Additional observations from a re-analysis of the deposited data

How the results depend on the processing

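None of the 15 probe sets passed the adjusted threshold under any alternative run; over all probe sets, 5 passed under the filter at the median level (14 of the 15 were tested) and 5 under the trended and robust prior (the cause was not tested), and 0 under the others. Variance priors, the filter and the blocks cannot move a difference. Of 117 differences under the other alternatives, which include means over a gene's probe sets, 108 kept their direction and 9 reversed. For the 10 probe sets whose genotypes do not overlap, leaving out 1 array cannot reverse the direction, so that outcome was fixed in advance. All 9 reversals came with 1 array left out, among the probe sets that do overlap: Mmp9 1416298_AT ranged from -0.10 to 0.43, Mmp9 1448291_AT from -0.06 to 0.47, Mmp13 from -3.17 to 0.80, Mmp14 1416572_AT from -0.29 to 0.43 and Mmp14 1448383_AT from -0.28 to 0.47. Higher in SIN1 KO without overlap were 4 instead of 2 after scaling to the hybridisation controls (Mmp9 added; 51.4% of all instead of 20.4%) and 2 to 5 with 1 array left out (5 without wild type replicate 1, 43.2% of all, and 5 without SIN1 KO replicate 1, 43.7% of all), where a rule on fewer arrays is easier to meet. With the median of the Bacillus controls as background, 0 instead of 1 of the 15 lay at background on every array. The replicate number as a block gave 0 calls, with 7 of the 15 at an unadjusted p under 0.05 instead of 8 (2.87% of all instead of 5.57%); deviations of arrays with one number were opposed (r = -0.415), and a block that crossed the numbers, chosen after seeing the data, gave 0 and 10 (14.1% of all). Signal over background limits Mmp9, Mmp13 and wild type Mmp2.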
